A study of Nannochloropsis oceanica with 6 samples.

Results

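Described here are 100 nuclear genes of Nannochloropsis oceanica with transcript levels below wild type (WT) in every library of 2 NoPAC4 knockout lines. They were chosen by their measured values. For each gene, reads were divided by the library total and multiplied by 1e+06 (CPM), and the gap was taken as the log2 ratio of the lowest WT value to the highest knockout value, each with 0.5 CPM added. The 100 widest gaps were kept among 8699 eligible nuclear IDs of 10333 nuclear IDs and 10493 IDs in all. An eligible ID had a mean of at least 5 CPM over the 6 libraries. It was also outside the 200 nuclear IDs with the highest mean WT TPM (a level per transcript length), and outside 4 runs of 20 IDs, at the end of prefixes NO06 and NO09 and at the start of NO18 and NO30. Because the choice used knockout against WT, every value on that contrast below is a description of the chosen genes and not a test of them.

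All 6 libraries came from strain IMET1, with 2 libraries each from WT, NoPAC4 knockout line 1 and NoPAC4 knockout line 2. The cultures had no other treatment than 5 days of continuous low light, at 50 µmol photons per square metre per second, with 23 °C given for the treatment and 25 °C in the growth text. Polyadenylated RNA was sequenced to between 13956855 and 16311248 reads assigned to genes per library. Whether the replicates were separate cultures, and whether each line descends from 1 cell, is not given in the sources used here, so a p-value covers the spread of these libraries, which may be technical. NoPAC4 itself was not analysed here, because the table does not pair nuclear IDs with names.

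Nannochloropsis oceanica is a single-celled marine alga of the eustigmatophytes, studied for the oil it stores and for its long-chain polyunsaturated fatty acids. Its plastid keeps a small genome, and most proteins of the photosynthetic and lipid pathways are encoded in the nucleus and carried to their compartments after translation. The reference gene table matched 0 of all nuclear IDs, and so 0 of the 100 members, and no function can be stated for any member. Only the first 2 are named by ID, and the others by their place in the order of the gap.

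Together the members held 1.86 and 1.96% of all reads in the WT libraries. In line 1 they held 1.12 and 1.15%, and in line 2 they held 0.975 and 1.20%. A typical member stood at 57.2% of its WT level when the 4 knockout libraries were averaged, with quartiles of 52.7 and 61.7% and a range from 21.1 to 65.9%. Over all eligible IDs the median was 104%. Only 12 members had a knockout mean of at most 50% of the WT mean, so most of these genes differed modestly but in every library. Each library holds RNA from a whole culture, and fewer cells with a transcript cannot be told apart from less transcript per cell.

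**Figure D1:**
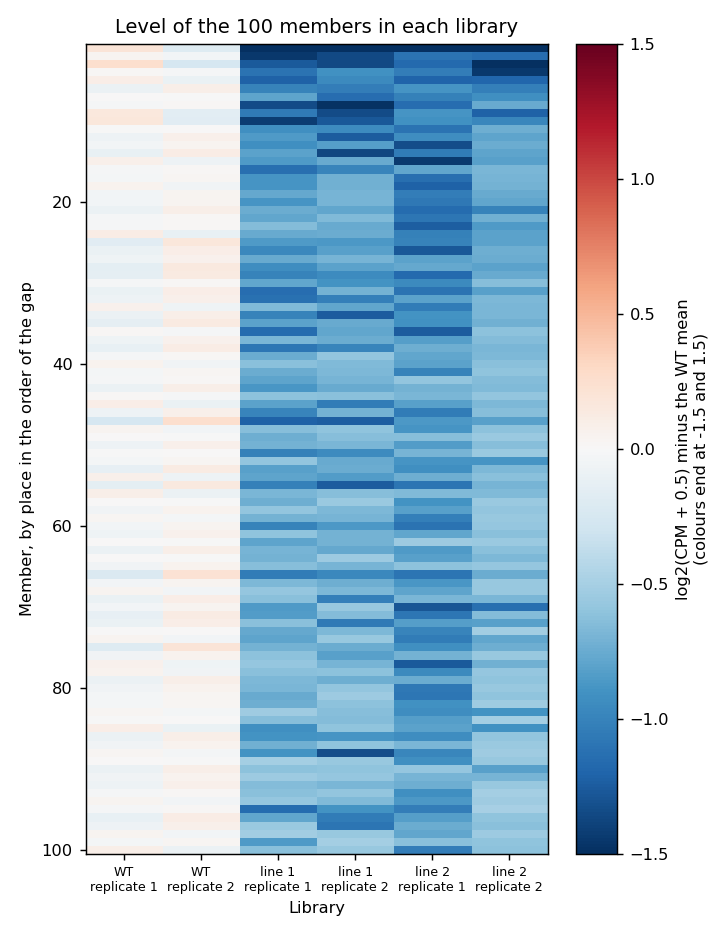
Level of each of the 100 members (rows, by place in the order of the gap) in each of the 6 libraries (columns), as log2(CPM + 0.5) minus the mean of the WT libraries, with colours ending at -1.5 and 1.5. Both WT columns stay near 0 and all 4 knockout columns are negative in every row, as the choice requires. The darkest blue lies mostly in the first 10 rows, and line 2 replicate 1 is darker than line 2 replicate 2 in most rows.

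NO27G01660 had the widest gap, 1.58 on the log2 scale. It was at 29.4 and 22.4 CPM in WT, at 7.16 and 6.71 CPM in line 1, and at 2.65 and 5.34 CPM in line 2. Every knockout library was thus far under both WT libraries, and the lowest value was that of line 2 replicate 1. The WT mean was 25.9 ± 4.94 CPM (SD, n = 2). The knockout mean was 5.47 ± 2.03 CPM (SD, n = 4), which is 21.1% of it. The fitted log2 change was -2.34 ± 0.24 (SE, edgeR adjusted p = 0.0380). Its WT level per length was 144 TPM. Its relative length, from the ratio of CPM to TPM, was 0.172, where 1 is the median eligible ID. Its counts were not whole numbers, so it shared reads with other IDs and its level is uncertain.

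NO30G01280 was second, with a gap of 1.07, and it was weakly expressed. Its WT libraries had 9.01 and 8.54 CPM, line 1 had 2.91 and 3.12 CPM, and line 2 had 3.80 and 3.70 CPM. The 3 groups did not overlap, with line 1 lowest. The knockout mean of 3.38 ± 0.44 CPM (SD, n = 4) was 38.5% of the WT mean of 8.78 ± 0.34 CPM (SD, n = 2). The log2 change was -1.43 ± 0.16 (SE, edgeR adjusted p = 0.0475). All its counts were whole, and its WT level per length, 4.86 TPM, was the lowest of the 100.

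The next members in the order had knockout means of 38.1 to 50.7% of WT. At place 3, the WT libraries had 24.5 and 17.1 CPM, line 1 had 8.24 and 7.71 CPM, and line 2 had 8.81 and 6.90 CPM. The spread within WT at that place was wider than the spread over all 4 knockout libraries. Place 4 had 10.4 and 10.03 CPM in WT, 4.46 and 5.18 CPM in line 1, and 4.73 and 3.42 CPM in line 2. At place 5, WT had 24.9 and 21.5 CPM, line 1 had 9.66 and 11.7 CPM, and line 2 had 9.74 and 9.87 CPM. The knockout values at place 5 lay within a narrow band, and its log2 change was -1.22 ± 0.13 (SE, edgeR adjusted p = 0.0380). Place 6 had 17.7 and 19.9 CPM in WT, 9.12 and 8.84 CPM in line 1, and 9.96 and 8.97 CPM in line 2. At place 7, both WT libraries had 35.6 and 35.5 CPM, while line 1 had 20.3 and 15.9 CPM and line 2 had 17.4 and 18.5 CPM. In both of these genes the lines overlapped each other and every knockout library lay near the middle of the way between 0 and WT.

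Places 8 to 10 differed in how the lines stood to each other. At place 8, WT had 40.5 and 41.3 CPM, line 1 had 15.8 and 14.3 CPM, and line 2 had 18.3 and 24.0 CPM. Line 1 was below line 2 there, and the log2 change over both lines was -1.24 ± 0.14 (SE, edgeR adjusted p = 0.0475). Place 9 had 39.0 and 31.3 CPM in WT, 16.4 and 13.5 CPM in line 1, and 18.6 and 14.7 CPM in line 2, with the lines overlapping. At place 10, the first member above 100 CPM in WT, the WT libraries had 125 and 98.7 CPM, line 1 had 41.2 and 45.7 CPM, and line 2 had 59.2 and 56.0 CPM. It had the smallest adjusted p of the members, where the fitted log2 value was -1.20 ± 0.11 (SE, edgeR adjusted p = 0.0251), and line 1 again lay below line 2.

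**Figure D2:**
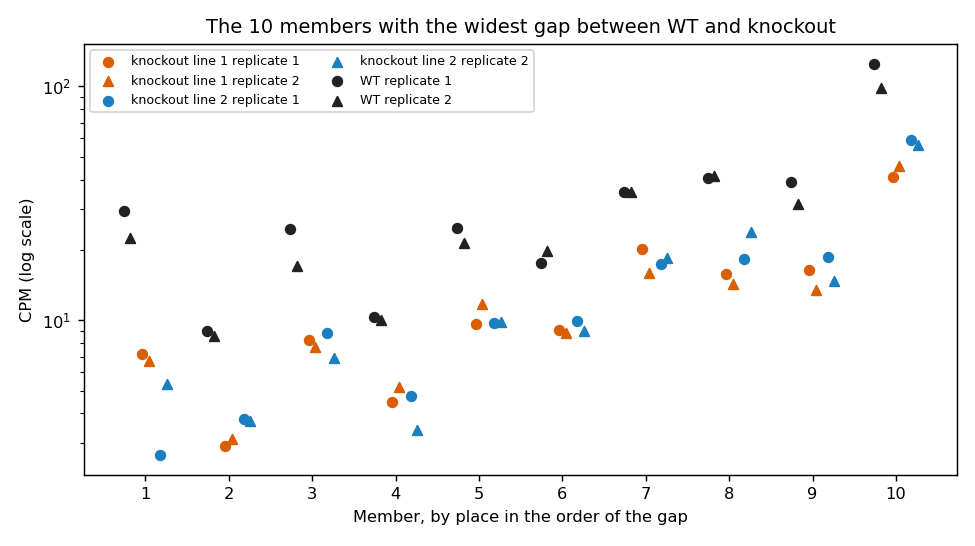
CPM (log scale) of the 10 members with the widest gap, in WT (black), line 1 (orange) and line 2 (blue), with circles for replicate 1 and triangles for replicate 2 and each library shown as 1 point. In every gene both black points lie above all coloured points, and at place 1 the line 2 replicate 1 point, at 2.65 CPM, is the lowest in the plot.

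The 5 most abundant members stood at 52.1 to 63.5% of WT, on both sides of the median of 57.2% over all members. The highest WT level was at place 50, with 1634 and 1819 CPM in WT, 1057 and 1068 CPM in line 1, and 961 and 1110 CPM in line 2, or 60.8% of WT. At place 20, WT had 1236 and 1312 CPM, line 1 had 692 and 784 CPM, and line 2 had 606 and 742 CPM. These genes kept the order WT above both lines with the lines overlapping. Place 84 had 1081 and 1086 CPM in WT, 693 and 687 CPM in line 1, and 610 and 760 CPM in line 2. At place 80, WT had 885 and 956 CPM, line 1 had 570 and 610 CPM, and line 2 had 438 and 620 CPM. Place 13 had 890 and 947 CPM in WT, 485 and 519 CPM in line 1, and 363 and 547 CPM in line 2. In all 5 of these genes line 2 replicate 1 was the lowest library, and in 4 of them, all but place 20, line 2 replicate 2 was the highest knockout library. Of the 5, only place 13 had whole counts, so the other 4 shared reads with further IDs.

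Per length, the members covered nearly the whole range of the eligible IDs. Their WT levels ran from 4.86 to 679 TPM, with a median of 67.1 TPM and quartiles of 22.6 and 192 TPM. Eligible IDs had a median of 51.2 TPM with quartiles of 27.7 and 95.3 TPM. The members were thus spread more widely, with 37 above 100 TPM and 5 below 10 TPM. Relative transcript length had a median of 1.26 among members, and 61 members were longer than the median eligible ID. These are descriptions with no test.

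The limit at place 100 cut through a continuous series of values. The member at place 100 had 43.2 and 38.5 CPM in WT, 26.4 and 27.3 CPM in line 1, and 19.7 and 26.4 CPM in line 2, with a gap of 0.486. The first ID outside had 644 and 589 CPM in WT, 421 and 413 CPM in line 1, and 378 and 416 CPM in line 2, also with a gap of 0.486. The next had 499 and 489 CPM in WT and 328 to 350 CPM in the knockout libraries, with a gap of 0.485. The values on both sides of the limit were alike, and 9 members and 9 IDs outside lay within 0.01 of the gap at place 100.

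In 908 eligible IDs, or 10.4%, all 4 knockout libraries were below both WT libraries, and the members are the 100 of these with the widest gap. The same rule turned round, with the lowest knockout over the highest WT value, found 1240 IDs without overlap, or 14.3% of eligible IDs. The gap at place 1 was 3.68 in that direction, against 1.58 among the lower genes. At place 10 the order was the other way, with gaps of 0.558 for higher and 0.732 for lower genes, and so it was at place 100, with 0.262 and 0.486. Just 22 higher genes had a gap as wide as the member at place 100.

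**Figure D3:**
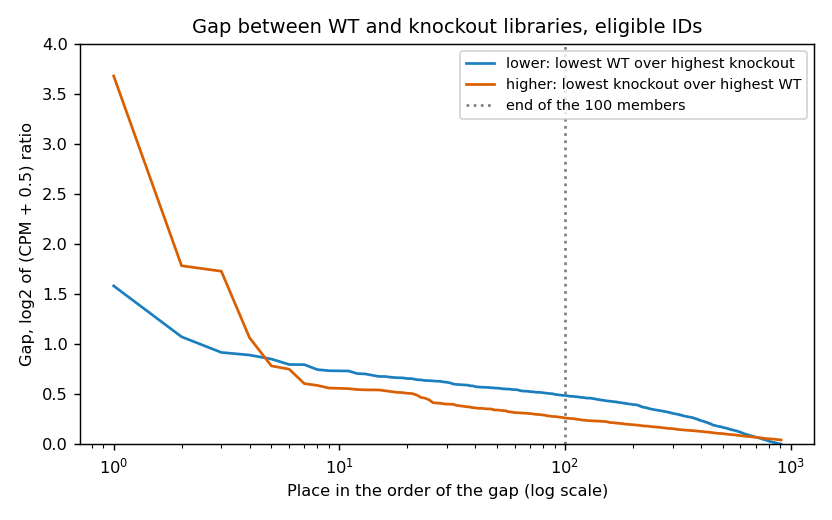
Gap between the WT and knockout libraries (log2 ratio of CPM + 0.5) against place in the order of the gap (log scale), for lower genes (blue, lowest WT over highest knockout) and higher genes (orange, lowest knockout over highest WT). The orange line starts at 3.68 and the blue line at 1.58, the blue line lies above the orange one at places 10 and 100, and the dotted line marks the end of the members at a gap of 0.486.

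Of 9712 genes tested by edgeR's quasi-likelihood test over all 3 groups, 8 (0.0824%) were called lower in both lines together at a Benjamini-Hochberg adjusted p below 0.05. Of these, 6 were members, at places 1, 2, 5, 8, 10 and 51. Another of the 8 was among the 200 most abundant IDs left out, and 1 was eligible but past place 100. The adjusted p of the members ran from 0.0251 to 0.116, with 99 below 0.1, and their log2 changes ran from -2.34 to -0.65, with a median of -0.85 beside 0.01 for all tested genes. At place 51, the called member with the smallest change, WT had 77.6 and 77.7 CPM, line 1 had 38.2 and 40.1 CPM, and line 2 had 47.6 and 52.6 CPM. The knockout values were apart from WT and from each other by line, and the log2 change was -0.86 ± 0.10 (SE, edgeR adjusted p = 0.0475).

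The number of members called rested on single libraries. It was 0 without any 1 of the 4 knockout libraries, 100 without WT replicate 1 and 94 without WT replicate 2. In the same 6 fits, 2 genes, 2848 genes and 511 genes of the whole table were called, so the members' count moved with that of all genes. These counts of all genes take both directions, and the edgeR fit of all 6 libraries called 16. By the same count, DESeq2 called 100 members and 557 genes in all, and limma-voom called 6 members and 18 genes.

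For line 1 alone, 1 member was called lower, where 3 of all tested genes (0.0309%) were called lower. This was the member at place 10, with a log2 change of -1.39 (edgeR adjusted p = 0.0249). In line 2, 0 members were called, where 0 of all tested genes (0%) were called lower, while all 100 members and 11.8% of all tested genes had an unadjusted p below 0.05 by edgeR. Counting all genes in both directions, edgeR called 4 in line 2, DESeq2 374 (3.85%) and limma-voom 4, with 0, 98 and 0 members among them. Members stood at a median of 59.2% of WT in line 1 and 57.5% in line 2. Both comparisons use the same WT libraries.

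The lines were then set against each other, a difference the choice did not use directly. Because the choice limited the highest knockout value, it still favours genes whose knockout libraries lie close together. By edgeR, 0 members were called higher in line 1 (0% of all tested genes) and 0 lower (0%), and DESeq2 and limma-voom also called 0 members, with 17 (0.175%) and 0 of all tested genes. At an unadjusted p below 0.05 there were 6 members, 3 in each direction, beside 364 of all tested genes (3.75%). The median log2 difference of line 1 minus line 2 was 0.05, with quartiles of -0.08 and 0.15 and a median SE of 0.16 for a single gene. A p-value that misses the threshold is no evidence that the lines have equal levels.

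The size of the log2 difference between the lines had a median of 0.12 over members and 0.14 over all tested genes. The upper quartiles were 0.20 and 0.25, so small differences were common over all tested genes too, though somewhat smaller in the members. In 99 members, as in most of all tested genes, the lines were within 1.5-fold of each other on average. The exception was NO27G01660, where line 1 was higher by 0.82 ± 0.33 on the log2 scale (SE, edgeR adjusted p = 0.914). Next was place 70, where line 1 had 11.5 and 14.1 CPM, line 2 had 8.38 and 9.39 CPM, and WT had 20.5 and 21.8 CPM. Line 1 lay above line 2 there without overlap, at 0.55 ± 0.18 (SE, edgeR adjusted p = 0.914). In the other direction were the members at place 8, at -0.46 ± 0.18 (SE), and place 10, at -0.38 ± 0.14 (SE), both with edgeR adjusted p = 0.914. In 16 members both line 1 libraries were below both line 2 libraries (29.4% of eligible IDs were so), and in 9 they were above (21.3% of eligible IDs). In 75 members the lines overlapped, as they did in 4287 of the 8699 eligible IDs.

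The line 2 libraries stood apart from each other in the members. In 61 members line 2 replicate 1 was below both line 1 libraries, against 31.8% of eligible IDs, and in 60 members line 2 replicate 2 was above both, against 43.4%. Both held at once in 35 members, so that the line 1 libraries lay between those of line 2, against 6.29% of eligible IDs. Replicate 2 of line 2 was higher than replicate 1 in 88 members, with a median log2 ratio of 0.21 (46.2% and -0.02 over eligible IDs). In line 1 the ratio had a median of 0.02 in the members and in the eligible IDs alike. Among the 100 consistently higher genes of the turned rule, line 2 replicate 2 was higher in 24. The highest knockout value entered the choice, so these shares are not independent of it, and the part of this replicate difference in the members' changes was not tested.

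The WT libraries were closer to each other in the members than over eligible IDs. The SD of the log2 ratio of the WT replicates was 0.17 over members and 0.45 over eligible IDs, and 0 members but 343 eligible IDs differed more than 2-fold. The 100 consistently higher genes of the turned rule also had close WT replicates, with an SD of 0.25 and 0 genes past 2-fold. Replicate 2 was the higher in 65 members and in 42.2% of eligible IDs. The choice by the lowest WT value favours genes with WT replicates close together, and no test is given. In line 1 and line 2 the SD was 0.19 and 0.22 over members and 0.19 and 0.23 over eligible IDs.

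**Figure D4:**
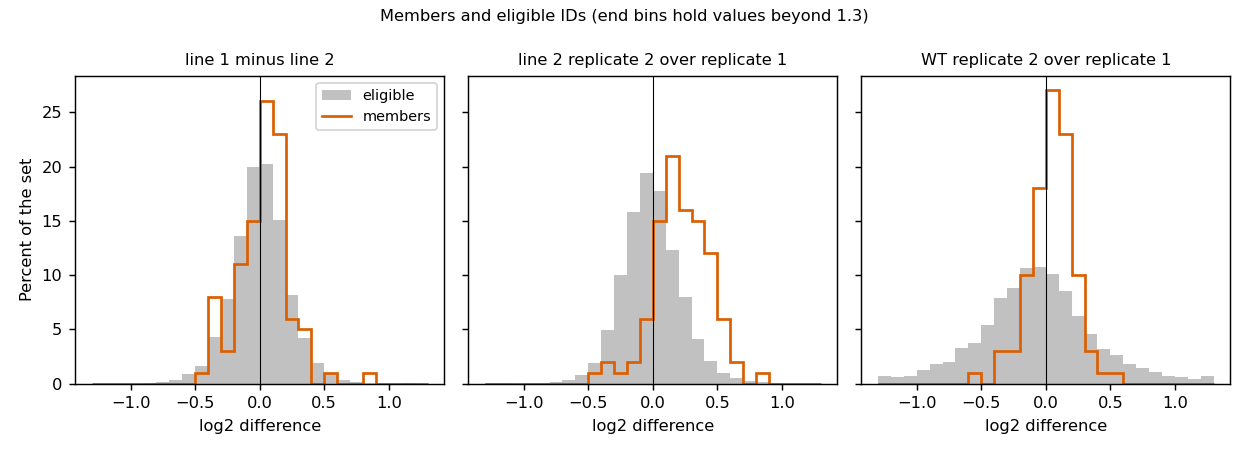
Percent of members (orange outline) and of eligible IDs (grey) by log2 difference in bins of width 0.1, for line 1 minus line 2, for line 2 replicate 2 over replicate 1, and for WT replicate 2 over replicate 1, with end bins holding values beyond 1.3. Members lie near 0 between the lines (median 0.05), to the right of 0 between the line 2 replicates (median 0.21), and in a narrower peak than eligible IDs between the WT replicates (SD 0.17 against 0.45).

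To read the same measure in a library that the choice did not use, the rule was applied to 5 libraries at a time and the sixth was then looked up. The left-out library was still compared with libraries that made the choice, and the other replicate of its group was among those 5. The counts are therefore a description and no independent test. Leaving out a line 1 library or line 2 replicate 1, the left-out library was below both WT libraries in all 100 genes chosen. For line 2 replicate 2 this held in 99. Over eligible IDs the left-out knockout library was below both WT libraries in 18.9 to 29.1%. Over IDs without overlap among the 5 libraries used, this share was 91.2 to 92.9% for the first 3 of these libraries and 79.4% for line 2 replicate 2, which is nearer to the counts of the genes chosen. Leaving out WT replicate 1, that library lay above all 4 knockout libraries in 83 of the 100 genes chosen, and WT replicate 2 did so in 94. Over eligible IDs these shares were 24.4 and 26.9%, and 38.9 and 42.6% of IDs without overlap among the 5 libraries used. The genes chosen without 1 WT library were partly others, with 43 members among them without WT replicate 1 and 64 without WT replicate 2.

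The members were spread over 28 of the 30 nuclear ID prefixes. NO10 held most, with 9 of its 346 eligible IDs. The largest share was in NO27, with 5 of 146 (3.42%), followed by NO26 with 5 of 160, against 1.15% of all eligible IDs, while NO24 and NO29 held 0. In 7 cases, members had neighbouring IDs in the table, and these formed 6 runs with 13 members. No source used here states that the order of IDs is the order along a chromosome. The 100 consistently higher genes had 4 such cases.

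The longest run was of 3 members, at positions 7 to 9 among the IDs of NO19. The first, at place 72 by gap, had 144 and 166 CPM in WT, 100 and 73.8 CPM in line 1, and 87.1 and 87.5 CPM in line 2. The second, at place 12, had 52.4 and 58.8 CPM in WT, 30.7 and 23.1 CPM in line 1, and 28.9 and 32.0 CPM in line 2. For the third, at place 14, these values were 251 and 292, 154 and 105, and 131 and 156 CPM. All 3 were lower in line 1 replicate 2 than in line 1 replicate 1, and their knockout means were 50.3 to 56.2% of WT. The IDs before and after this run stood at 70.3 and 62.7% of WT, but line 1 replicate 1 was close to WT in both. In the ID before the run it had 225 CPM, just under the 227 and 270.5 CPM of WT. In the ID after it, the 100.05 CPM of line 1 replicate 1 lay between the 105 and 94.6 CPM of WT.

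The IDs beside the other runs varied. In NO27, the members at positions 170 and 171 of the prefix (places 51 and 13 by gap) stood at 57.4 and 52.1% of WT, the ID before them at 65.5% and the ID after them at 99.9%. NO27G01660 was at position 166 of the same prefix. At positions 391 and 392 of NO06, the members (places 15 and 23) stood at 51.9 and 54.5% of WT, while the ID before them was at 80.0%, overlapping WT, and the ID after them at 114%. In NO18, positions 160 and 161 (places 77 and 100) were at 57.7 and 61.0%, and the ID after them, among the 200 most abundant IDs left out, was at 65.4%. All 3 of these NO18 IDs had counts that were not whole. At positions 420 and 421 of NO04, the members (places 16 and 55) were at 52.8 and 49.1%, between IDs at 106 and 121%. The member at position 424 of that prefix (place 24) was at 55.3%, and the ID just before it at 47.7%. In NO10, positions 37 and 38 (places 42 and 9) were at 62.4 and 45.1%, with the ID before them at 113% and the ID after them at 0 to 0.184 CPM in all libraries.

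Over the 154 eligible IDs next to a member that were not members themselves, the median knockout mean was 100.5% of WT, against 104% over eligible IDs. All 4 knockout libraries were below both WT libraries in 29 of the 154 (18.8%), against 10.4% of eligible IDs, a share that includes the members themselves. In the other neighbours knockout and WT libraries overlapped or the knockout libraries were higher. Some neighbours shared reads with a member, as given below, so they are not independent of the members.

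**Figure D5:**
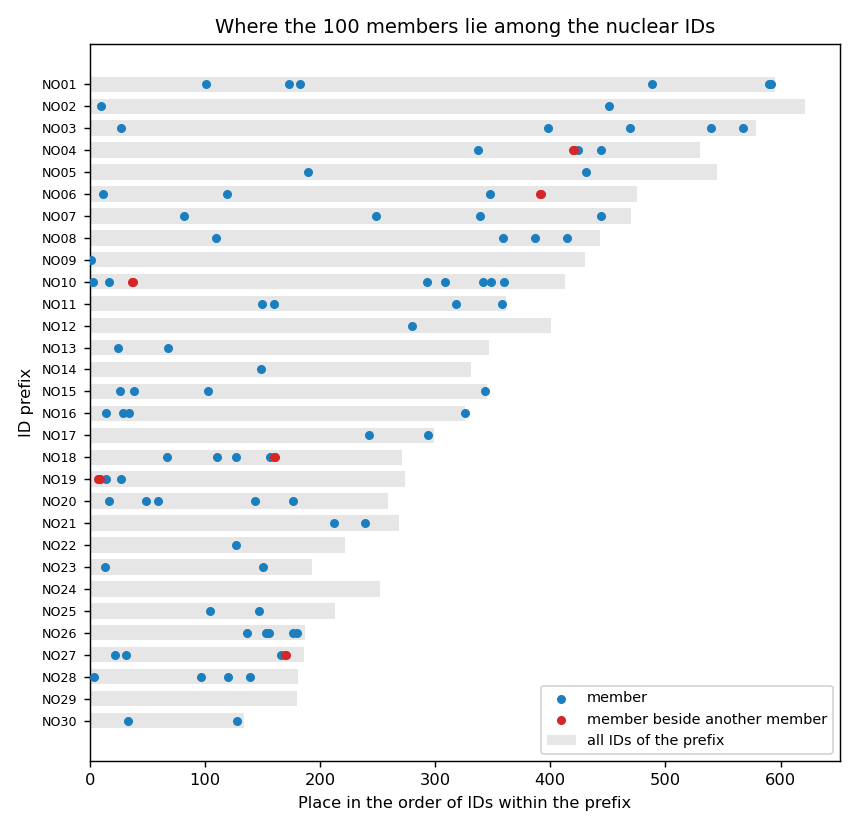
Place of the 100 members (points) in the order of IDs within each of the 30 nuclear prefixes (grey bars, whose length is the number of IDs), with members that neighbour another member in red. The 13 red points form 6 runs, the longest with 3 members in NO19, and NO24 and NO29 hold no point.

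Counts of 36 members were not whole in every library, which shows that their reads were split with other IDs, against 64 members with whole counts (73.2% of eligible IDs had whole counts). Members with whole counts stood at a median of 57.4% of WT, and the others at 55.7%. For 11 of 28 members whose counts were not whole in 3 or more libraries, exactly 1 other ID had counts that added up with theirs to whole numbers in all 6 libraries (tolerance 0.0015 reads). In 8 of the 11 that ID was the neighbouring one. The sum of such a pair does not depend on how reads were split within it.

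The sum kept all knockout libraries below both WT libraries for 10 of the 11 members, but for only 4 of them was it as wide as the gap at place 100. The member at place 20 and its partner summed to 1733 CPM in WT and 1022 CPM in the knockout libraries, or 59.0% of WT, beside 55.4% for the member alone. Places 38 and 75 were partners of each other, at 53.9 and 58.0% of WT apart and 57.9% together. The member at place 16, one of the NO04 run, was at 52.8% and summed with its partner to 50.2%. For these 4 the sum stayed close to the member's own value.

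The other 7 members had a partner that was less reduced, at or above the WT level in 5 of them. The member at place 47 was at 47.8% of WT, its partner at 105%, and the sum at 91.9%. At place 80, the member was at 60.8% and its partner at 130% of WT, and the sum was at 74.0%. The sum for the member at place 52 was at 85.2%, with a gap of -0.14, so that knockout and WT libraries overlapped. The remaining 4 of the 11, at places 46, 67, 76 and 94, had sums at 72.3 to 84.4% of WT, beside 55.9 to 63.5% for the members alone. For these 7 members the pair as a whole was less reduced than the member.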

How the data were processed

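The authors deposited expected counts, reads per gene in which a fraction can be assigned to each of several genes, with no scaling. The authors also deposited TPM, scaled by length within each library, for the same 10493 IDs and 6 libraries. The submitters' processing notes name STAR and edgeR. Versions, the counting program, genome build and annotation are not given in the sources used here. The library kit does not mark strand, per the labels' name of it. Reads within an overlap of genes on opposite strands thus cannot be assigned by strand. Sample titles gave the groups and the replicate numbers.

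Expected counts were rounded and tested with edgeR 4.0.16 in R 4.3.3 (robust quasi-likelihood, TMM factors, default low-count filter, 1 model with 3 groups and 3 residual degrees of freedom), with Benjamini-Hochberg adjustment over 9712 genes. Standard errors come from the test statistic. Alternatives used DESeq2 1.42.0 and limma 3.58.1 (voom), other factors, no filter, a replicate block, single libraries left out and other settings of the rule. The code was tested on simulated data. Gaps and percentages of WT use CPM over library totals, and all 100 members passed the filter.

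Described with each library's value were the first 10 members by gap, the 5 with the highest mean WT CPM, those at the limit, those with the most extreme differences between the lines, those called, and runs of 3. The members and lists were chosen with earlier results of these data known. With no nuclear ID matched to a name, lists of pathways could not be applied, and no sequence is shown.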

Additional observations from a re-analysis of the deposited data

How the results depend on the processing

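With 2 libraries a group, the number of members called depended on single libraries and on the tool. Counts of all genes called, in either direction, stand in brackets. For both lines, 6 members were called (16), 2 with upper-quartile factors (12), 91 without the filter on low counts (233) and 100 with DESeq2 (557), and 0 to 100 with single libraries left out (2 to 2848). For line 1, 1 member was called (13), 3 without the filter (16), 93 with DESeq2 (403), 3 with limma-voom (19) and 0 to 99 with single libraries left out (2 to 3153). For line 2, 0 were called (4), 98 with DESeq2 (374) and 0 to 99 with single libraries left out (1 to 1549). Between the lines 0 were called under every alternative run, including a fit of the 2 lines alone. A replicate block gave 94 members for both lines (337), 4 for line 1 (20), 0 for line 2 (3) and 0 between the lines, but the samples share only a number. The block used the numbers of the titles, and the column names of the deposited tables number the line 2 and WT libraries differently and would pair them otherwise. In both of these groups the column names skip a number, and whether further libraries were made is not given in the sources used here. By title numbers, the replicate differences correlated at 0.19 between the lines, 0.08 between line 1 and WT and 0.38 between line 2 and WT. The cause of these shifts was not tested. The median log2 change over both lines stayed between -0.91 and -0.79. The median difference between the lines was 0.05, and ranged from -0.085 (without line 2 replicate 1) to 0.17 (without line 2 replicate 2). Of the 100 members, 57 were chosen again when means replaced the lowest and highest values, 43 to 93 with single libraries left out (57 without line 2 replicate 2), and 87 to 100 under the other settings of the rule. No change of sign in the log2 change over both lines was seen for the 21 members described with each library's value under these fits. The choice required every knockout library to be below both WT libraries, so this sign was largely fixed by it and is no support.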
